A study of Homo sapiens with 24 samples.

Results

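The actin-bundling genes described here are the plastins LCP1, PLS1 and PLS3, the fascin FSCN1 and the actinins ACTN1 and ACTN4, 6 of the 58138 gene names counted. They were taken by family, and the set was chosen by 1 measured value: LCP1 had a count of 0 in the untreated RPRD1B_FL line. That observation singled out the gene, so the untreated RPRD1B_FL and FLP libraries are described without a test for these 6 genes. The study asks how the RPRD proteins, which bind the tail of RNA polymerase II, affect the amounts of RNA in human cells.

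The 24 libraries fall into 12 groups of 2. HEK293T cells, a human embryonic kidney line, received siRNA for 48 h: a control siRNA group (CTRL), single silencing of each gene (RPRD1A_KD, RPRD1B_KD, RPRD2_KD), 3 groups labelled as pairs (RPRD1A_RPRD1A_KD, RPRD1A_RPRD2_KD, RPRD1B_RPRD2_KD) and the triple RPRD1A_RPRD1B_RPRD2_KD. The label RPRD1A_RPRD1A_KD names RPRD1A in both places and was kept. The Flp-In T-REx 293 line, also derived from human embryonic kidney and built so that tetracycline turns on a gene placed at its integration site, was analysed as the parent (FLP, FLP_TET) and as a line labelled RPRD1B_FL (RPRD1B_FL, RPRD1B_FL_TET), untreated or after 48 h with tetracycline. The labels explain neither FL nor whether that line is 1 clone, and do not say whether the 2 libraries of a group came from separate cultures, so p-values measure the spread between these libraries, which may be technical. Reads come from the 3′ ends of polyadenylated RNA.

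Actin-bundling proteins hold actin filaments side by side. Plastins, also called fimbrins, carry both actin-binding regions on 1 polypeptide and pack filaments tightly. LCP1, or L-plastin, is the plastin of white blood cells and also appears in many cancer-derived lines, PLS1 is the plastin of microvilli in gut, kidney and the inner ear, and PLS3, or T-plastin, is found in most solid tissues. FSCN1 builds the stiff bundles of filopodia. ACTN1 and ACTN4, the non-muscle actinins, form dimers that join filaments loosely in stress fibres and at adhesions.

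LCP1 lies at chr13:46125920-46211871 on the minus strand of GRCh38 (GENCODE 29, ENSG00000136167.13). The others are PLS1 at chr3:142596387-142713664 (plus strand), PLS3 at chrX:115561174-115650861 (plus), FSCN1 at chr7:5592823-5606655 (plus), ACTN1 at chr14:68874143-68979440 (minus) and ACTN4 at chr19:38647649-38731583 (plus). Within the last 1000 bases of these spans, the only other annotated gene is CAPN12, on the opposite strand at the end of ACTN4.

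The promoter of the member with the widest range of levels is shown beside those of PLS3 and ACTN4, which separated the cell lines in opposite directions. Each is the 250 bases before the first RefSeq start on GRCh38.p14, read 5′ to 3′ on the strand of the gene, with each CpG dinucleotide in capitals. The windows are chr13:46182178-46182427 (minus strand) for LCP1, chrX:115560924-115561173 (plus) for PLS3 and chr19:38647399-38647648 (plus) for ACTN4. GENCODE 29 extends LCP1 further upstream than this RefSeq start.
LCP1: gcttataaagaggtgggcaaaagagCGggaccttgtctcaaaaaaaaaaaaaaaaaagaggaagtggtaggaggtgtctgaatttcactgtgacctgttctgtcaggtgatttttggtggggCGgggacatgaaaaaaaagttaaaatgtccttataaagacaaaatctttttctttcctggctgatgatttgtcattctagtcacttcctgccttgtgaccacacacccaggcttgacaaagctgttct
PLS3: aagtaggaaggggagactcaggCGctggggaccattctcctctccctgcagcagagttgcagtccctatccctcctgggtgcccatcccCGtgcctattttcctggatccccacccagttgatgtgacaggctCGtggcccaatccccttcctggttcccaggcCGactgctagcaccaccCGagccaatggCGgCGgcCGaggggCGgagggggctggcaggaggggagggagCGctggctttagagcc
ACTN4: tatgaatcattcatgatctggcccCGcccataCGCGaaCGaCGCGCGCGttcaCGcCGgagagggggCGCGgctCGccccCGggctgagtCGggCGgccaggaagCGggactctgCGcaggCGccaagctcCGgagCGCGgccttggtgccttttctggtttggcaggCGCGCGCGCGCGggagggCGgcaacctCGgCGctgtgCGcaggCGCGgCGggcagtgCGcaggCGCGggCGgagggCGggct

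Among these windows, that of LCP1 holds 2 CpG, that of PLS3 holds 10 and that of ACTN4 holds 40. PLS1 has 15 and ACTN1 has 25 in the first window. The median over 34941 promoter windows is 11, and 14.7% of windows have fewer CpG than LCP1, against 97.8% for ACTN4. On either strand, the letters TATAAA occur in the LCP1 window and in 10.8% of all windows, and TGANTCA, the letters of an AP-1 site, occur in the ACTN4 window and in 6.59% of all. A match of letters is a description and not evidence of a bound site. Sequences for 5 of the 6 genes were matched, and FSCN1 was not.

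HEK293T libraries held 1817246 to 3135625 gene counts and Flp-In T-REx 293 libraries 2342969 to 3531106. Levels are given as CPM, the count per 1000000 gene counts of the library. A floor of 3 counts lies between 0.85 and 1.65 CPM. Floors and the exact intervals for ratios of summed counts cover counting error only. Intervals of fold changes from edgeR's quasi-likelihood test also include the estimated spread between libraries. The targets checked the labels: RPRD1A was at 157 CPM in CTRL, at 19.04 to 26.5 in the groups labelled as silenced for it and at 77.5 to 94.2 in the other silenced groups, RPRD1B at 27.7 in CTRL and at 7.74 to 10.6 in its groups, and RPRD2 at 97.9 in CTRL and at 33.0 to 61.6. In RPRD1A_RPRD1A_KD, RPRD1B was at 11.2 CPM. With tetracycline, RPRD1B stood at 71.8 CPM in the RPRD1B_FL line and 28.7 in the parent. The second RPRD1A_RPRD2_KD library stands apart from the other HEK293T libraries in how its counts follow transcript GC content (Spearman 0.45 across 8685 genes, which are not independent replicates, against −0.23 to 0.12 in the others).

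LCP1 was present in the parent Flp-In T-REx 293 line and near or at 0 everywhere else. It had 153 and 143 counts in the FLP libraries (57.1 and 40.5 CPM) and 131 and 160 in FLP_TET (38.2 and 49.2 CPM). In RPRD1B_FL both libraries had 0 counts, and in RPRD1B_FL_TET there were 0 and 4 counts (0 and 1.71 CPM). The 16 HEK293T libraries held 0 to 3 counts each, 22 in all, with a median of 0.54 CPM and a maximum of 1.28. The 4 parental libraries do not overlap with any of the other 20. In order of group means, FLP (48.8 CPM ± 11.8, SD, n = 2) and FLP_TET (43.7 ± 7.79) do not differ beyond their spread, and the other 10 means lie between 0 and 0.96, within the floor.

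**Figure D1:**
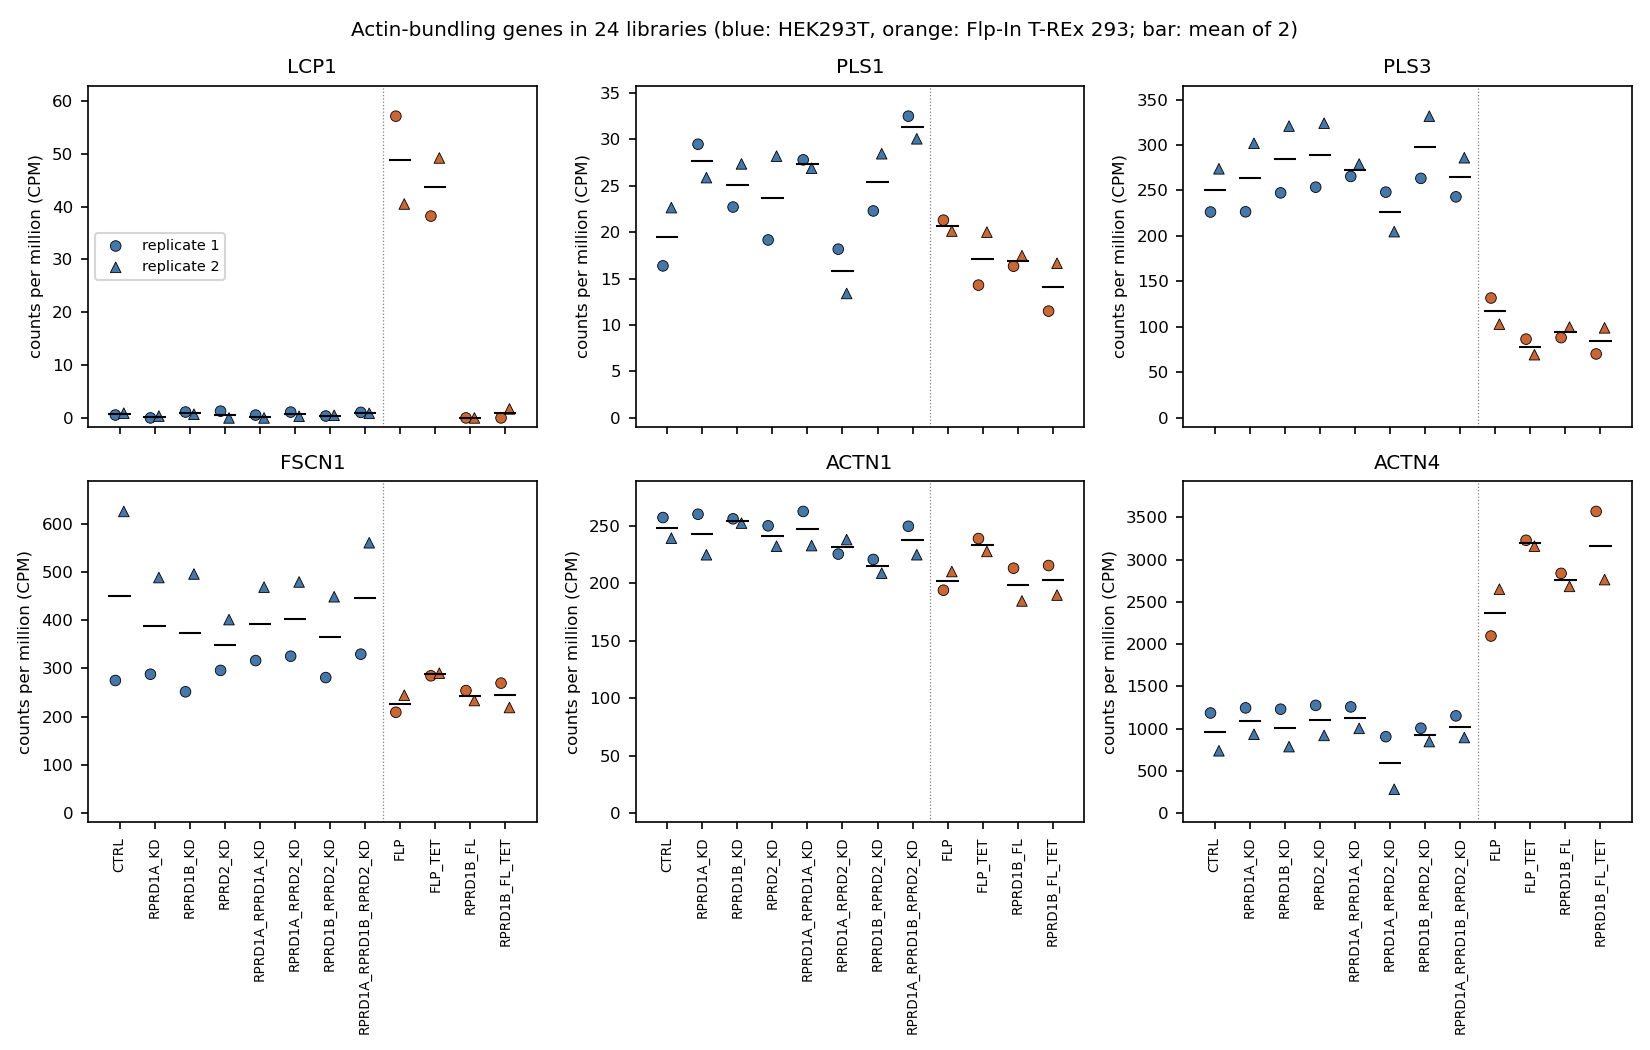
Level of each gene in CPM (vertical axes, linear) in the 24 libraries of 12 groups (horizontal axis), with circles for replicate 1, triangles for replicate 2 and bars for the mean of 2. LCP1 stands at 38.2 to 57.1 CPM in the 4 parental Flp-In T-REx 293 libraries and at or under 1.71 elsewhere, while the other genes were counted in every library.

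For the untreated lines, the mean of 48.8 CPM in FLP against a floor of 3 counts per library, 1.09 CPM on average, makes LCP1 at least 44.8-fold higher in FLP. This difference chose the gene and carries no test. In these bulk samples, fewer cells with the transcript and less of it per cell cannot be told apart. The other members in the same 2 groups are given as a description: PLS1 was at 16.3 and 17.5 CPM in RPRD1B_FL and 21.3 and 20.1 in FLP, and PLS3 at 88.2 and 99.8 against 132 and 103. FSCN1 was at 254 and 233 against 209 and 244, ACTN1 at 213 and 185 against 194 and 210, and ACTN4 at 2838 and 2684 against 2096 and 2651. The groups overlap for FSCN1 and ACTN1 and lie apart for PLS1, PLS3 and ACTN4 by less than the gap seen for LCP1. The share of all genes whose groups lie apart is not given, here or in later comparisons. Such gaps are therefore a description only. Of all 11948 genes tested in this comparison, 1.18% (0.226% higher, 0.954% lower) were called at an adjusted p under 0.05 by edgeR's quasi-likelihood test with Benjamini-Hochberg adjustment.

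The value that chose the set came from the untreated libraries and not from those with tetracycline. Both come from the same lines, and the fit drew its spread from all Flp-In T-REx 293 libraries. The test in the libraries with tetracycline is therefore not independent of that choice. LCP1 also passed the filter on low counts through the parent libraries alone, so its p-value is not separate support. There, LCP1 was lower in RPRD1B_FL_TET than in FLP_TET by edgeR's quasi-likelihood test (log2 fold change −5.76, SE 0.48, 95% interval −6.77 to −4.76, adjusted p = 2.21e-07). From the summed counts of 291 and 4, the level in FLP_TET was 57.7 times that in RPRD1B_FL_TET, with an exact 95% interval for counting error of 22.3 to 213. Of the 6 members only LCP1 was called, lower, and LCP1 is the gene that chose the set. That call therefore says nothing about the other members. Among all genes tested, 0.887% were called lower, 0.226% higher and 1.11% in either direction. With either library of RPRD1B_FL_TET left out the call remained, but the log2 fold change moved between −10.08, without the library that holds the 4 counts, and −4.67, without the other.

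The 5 other members passed no threshold in this comparison, and their intervals bound the differences. PLS1 differed by −0.29 on the log2 scale (95% interval −0.84 to 0.26), from 14.3 and 19.99 CPM in FLP_TET to 11.49 and 16.6. PLS3, the plastin of solid tissues, differed by 0.12 (−0.26 to 0.50). FSCN1 differed by −0.22 (−0.54 to 0.11) and ACTN1 by −0.19 (−0.50 to 0.13), and the groups of both lie apart, at 285 and 290.1 against 269 and 219 CPM for FSCN1 and at 239 and 228 against 216 and 190 for ACTN1. ACTN4 was at 3571 and 2764 CPM in RPRD1B_FL_TET and at 3230 and 3160 in FLP_TET, a log2 fold change of 0.01 (−0.32 to 0.33). Neither PLS1 nor PLS3 was shown to differ where LCP1 was nearly missing.

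Tetracycline itself was tested in the parent line for the 5 members other than LCP1, since LCP1 was singled out partly on the FLP libraries. For LCP1 the log2 fold change was −0.08, and its groups overlap. Before adjustment, 3 of the 5 had a p under 0.05 in the FLP_TET and FLP comparison, as did 2711 of the 11948 genes tested. After adjustment none of the 5 was called, where 1.02% of genes were called (0.226% higher, 0.795% lower). PLS3 was at 86.6 and 69.5 CPM with tetracycline and 132 and 103 without (−0.52, SE 0.18, edgeR adjusted p = 0.10). ACTN4 was at 3230 and 3160 against 2096 and 2651 (0.49, SE 0.16, edgeR adjusted p = 0.087), and FSCN1 at 285 and 290.1 against 209 and 244 (0.40, SE 0.16, edgeR adjusted p = 0.14). The groups lie apart for all 5, PLS1 and ACTN1 included, which is a description only, without the share over all genes. A fit of the 2 groups alone called PLS3, ACTN4 and FSCN1, with edgeR adjusted p-values of 0.036, 0.023 and 0.048. The share of all genes called in that fit is not given, so these 3 calls cannot be read as particular to the members. Over the alternative fits up to 1273 genes were called in this comparison, against 122 in the main fit. DESeq2 called none of the 5.

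Transcript GC content moves with this comparison. Across 8594 genes, the level of a gene relative to the mean fell with GC content in both FLP libraries (Spearman −0.55 and −0.37) and increased with it in both FLP_TET libraries (0.31 and 0.47). In the RPRD1B_FL line the values were 0.20 and −0.50 untreated and 0.62 and −0.13 with tetracycline. PLS3 has a GC content of 39.0%, lower than most genes, whereas ACTN4 has 58.6% and FSCN1 65.0%. With a GC correction, chosen after the data were seen, the log2 fold change of PLS3 was −0.24, that of ACTN4 0.24 and that of FSCN1 0.04. In the comparison of RPRD1B_FL_TET with FLP_TET the correction left LCP1 at −5.78.

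In the RPRD1B_FL line, tetracycline gave no call among the 5 members other than LCP1 and no called gene (0 of 11948, 0%, by edgeR's quasi-likelihood test), although 733 genes had an unadjusted p under 0.05. Log2 fold changes of the 5 ran from −0.22 for PLS1 to 0.26 for ACTN4. LCP1 had 4 counts with tetracycline and 0 without, at the floor, and neither a fold nor a test is given. A test of whether tetracycline acted differently on the 2 lines called none of the 5 and no gene either (0%, with 477 genes at an unadjusted p under 0.05), with values from −0.34 for FSCN1 to 0.42 for PLS3. None of the 5 had an unadjusted p under 0.05 in these 2 comparisons, and DESeq2 called none in either.

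**Figure D2:**
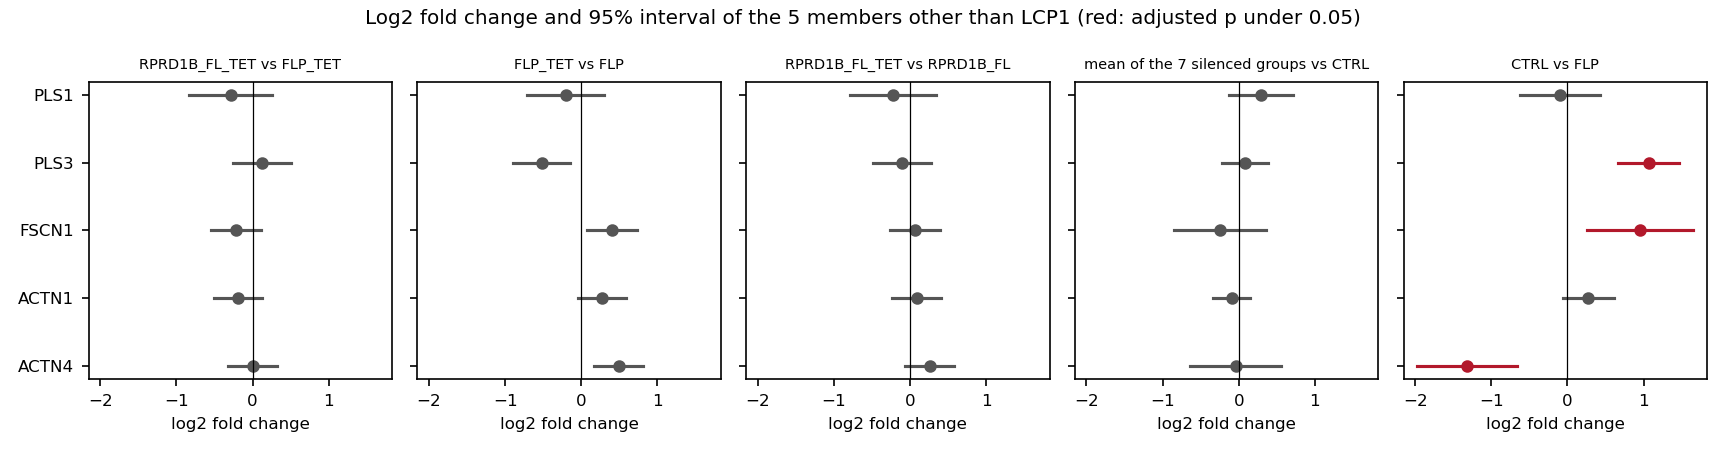
Log2 fold change (points) with 95% interval (lines) of PLS1, PLS3, FSCN1, ACTN1 and ACTN4 in 5 comparisons, red where the adjusted p was under 0.05. Red appears in the comparison of CTRL with FLP alone, for PLS3, FSCN1 and ACTN4, and LCP1 is left out because its change of −5.76 would set the scale.

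Silencing the RPRD genes in HEK293T cells was followed by no called change of any member. LCP1 had too few counts to be tested, which left 5 members and 35 tests, of which none passed (lowest edgeR adjusted p 0.70) and 1 had an unadjusted p under 0.05. DESeq2 called none. Between 0.00845% and 0.0169% of the 11834 genes tested were called per silenced group, so almost no gene passed in these comparisons. In the mean of the 7 silenced groups against CTRL the 5 members differed by −0.24 (FSCN1) to 0.29 (PLS1) with no call by edgeR or DESeq2 and no unadjusted p under 0.05. In that comparison 0.0169% of genes were called.

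PLS1, the plastin of microvilli, was the member furthest from CTRL in 4 silenced groups. Its libraries were at 16.4 and 22.6 CPM in CTRL, and at 32.5 and 30.04 in RPRD1A_RPRD1B_RPRD2_KD, a log2 fold change of 0.63 (SE 0.25, edgeR adjusted p = 1.00). The groups did not overlap. In RPRD1A_KD it was at 29.4 and 25.9 CPM (0.46, SE 0.25), in RPRD1A_RPRD1A_KD at 27.8 and 26.9 (0.44, SE 0.26) and in RPRD1B_KD at 22.7 and 27.3 (0.32, SE 0.25). All of these libraries lay above both CTRL libraries, in RPRD1B_KD only just (22.69 against 22.63 CPM). The share of all genes that lie apart is not given, so this is a description only. RPRD1A_RPRD2_KD had the lowest PLS1 mean in HEK293T, with 18.2 and 13.4 CPM.

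PLS3 was between 205 and 332 CPM in every HEK293T library, and its group means, from 226 CPM in RPRD1A_RPRD2_KD to 297 in RPRD1B_RPRD2_KD, overlap with that of CTRL (250 ± 33.6, SD, n = 2). No log2 fold change of PLS3 in the 7 silenced groups was the largest among the members. ACTN1 was between 209 and 263 CPM in HEK293T.

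FSCN1 was the member furthest from CTRL in RPRD2_KD (log2 fold change −0.41, SE 0.39) and in RPRD1B_RPRD2_KD (−0.33, SE 0.39). CTRL itself was spread widely, at 275 and 625 CPM. Without the second CTRL library both values changed sign, to 0.27 and 0.34. In all 8 HEK293T groups the library numbered 2 was higher in FSCN1 than the library numbered 1, by a median of 0.72 on the log2 scale (0.44 to 1.18). The 8 libraries numbered 1 ranged from 251 to 329 CPM and the 8 numbered 2 from 401 to 625, without overlap.

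ACTN4, the actinin of spreading edges and of kidney podocytes, showed the opposite order. The library numbered 2 was lower in all 8 groups, by a median of −0.44 (−1.67 to −0.25). Numbered 1, the libraries ranged from 905 to 1276 CPM, and numbered 2 from 283 to 1004. PLS3 was higher in the second library in 7 of 8 groups (median 0.30), ACTN1 lower in 7 of 8 (median −0.10), and PLS1 higher in 4. The share of reads assigned to no gene also split by number, at 34.3% to 36.7% in the libraries numbered 1 and 27.4% to 29.8% in those numbered 2. Nothing in the labels says what the numbers stand for, and their part in the comparisons was not tested beyond the fits with the number as a block. In the Flp-In T-REx 293 line FSCN1 was higher in the second library in 2 of 4 groups and ACTN4 in 1 of 4.

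**Figure D3:**
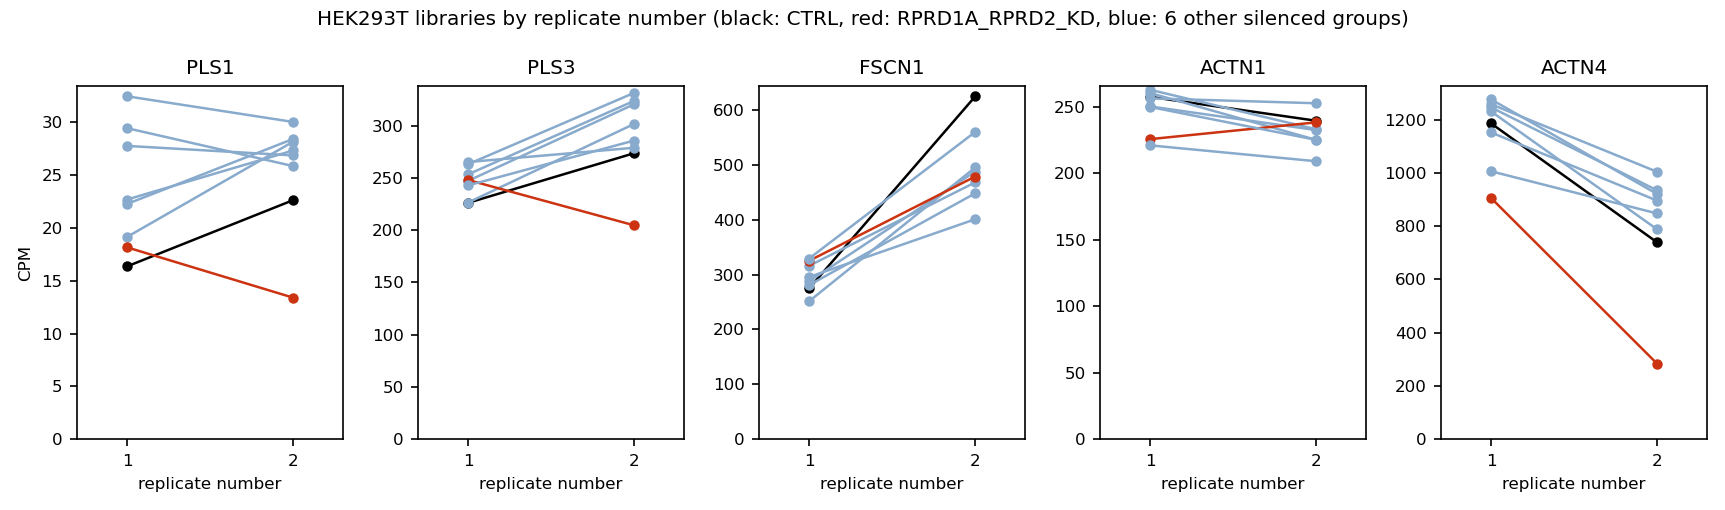
CPM (vertical axes) of 5 members in the 16 HEK293T libraries by replicate number, with a line joining the 2 libraries of a group (black CTRL, red RPRD1A_RPRD2_KD, blue the 6 other silenced groups). FSCN1 is higher in all 8 libraries numbered 2 and ACTN4 lower in all 8, and the lowest ACTN4 value, 283 CPM, belongs to RPRD1A_RPRD2_KD.

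ACTN4 was furthest from CTRL in RPRD1A_RPRD2_KD, where its libraries were at 905 and 283 CPM against 1186 and 739 in CTRL (log2 fold change −0.73, SE 0.38, edgeR adjusted p = 0.70). The groups overlap. The low library is the one that stands apart in GC trend, with genes of high GC content relatively higher in it (Spearman 0.45). The GC content of ACTN4 is above that of 83.6% of genes. The part of that library in the value was not separated from silencing. Without it the log2 fold change was −0.14, and with it as the only library of the group −1.73. In both fits the lone library is assumed to vary like the other groups. Each fit sets a single replicate number against both CTRL libraries. The shift of ACTN4 by number and silencing therefore cannot be told apart in these values.

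Over all 12 groups, the mean level of PLS1 (CPM ± SD, n = 2 each) was, from high to low, RPRD1A_RPRD1B_RPRD2_KD 31.3 ± 1.72, RPRD1A_KD 27.7 ± 2.54, RPRD1A_RPRD1A_KD 27.3 ± 0.636, RPRD1B_RPRD2_KD 25.4 ± 4.35, RPRD1B_KD 25 ± 3.29, RPRD2_KD 23.7 ± 6.38, FLP 20.7 ± 0.829, CTRL 19.5 ± 4.43, FLP_TET 17.1 ± 4.03, RPRD1B_FL 16.9 ± 0.798, RPRD1A_RPRD2_KD 15.8 ± 3.37, RPRD1B_FL_TET 14.1 ± 3.64. The libraries of neighbours in this order overlapped except for the triple group, which lay above RPRD1A_KD.

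For PLS3 the order by mean CPM was RPRD1B_RPRD2_KD 297 ± 48.3, RPRD2_KD 289 ± 49.7, RPRD1B_KD 284 ± 51.9, RPRD1A_RPRD1A_KD 272 ± 9.66, RPRD1A_RPRD1B_RPRD2_KD 265 ± 30.4, RPRD1A_KD 264 ± 53.3, CTRL 250.1 ± 33.6, RPRD1A_RPRD2_KD 226 ± 30.7, FLP 117 ± 20.3, RPRD1B_FL 94 ± 8.18, RPRD1B_FL_TET 84.7 ± 20.3, FLP_TET 78.1 ± 12.1. All 8 HEK293T groups stood above all 4 Flp-In T-REx 293 groups, and of the neighbours only RPRD1A_RPRD2_KD and FLP, and FLP and RPRD1B_FL, had libraries that did not overlap. For FSCN1 it was CTRL 450.0 ± 248, RPRD1A_RPRD1B_RPRD2_KD 445 ± 163, RPRD1A_RPRD2_KD 402 ± 109, RPRD1A_RPRD1A_KD 392 ± 108, RPRD1A_KD 388 ± 142, RPRD1B_KD 373 ± 173, RPRD1B_RPRD2_KD 365 ± 118, RPRD2_KD 348 ± 74.4, FLP_TET 287 ± 3.85, RPRD1B_FL_TET 244 ± 35.7, RPRD1B_FL 244 ± 14.5, FLP 227 ± 25. The HEK293T means were again all higher, with wide spreads, and of the neighbours only RPRD2_KD and FLP_TET, and FLP_TET and RPRD1B_FL_TET, did not overlap.

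For ACTN1 the means in CPM were RPRD1B_KD 254 ± 2.61, CTRL 248 ± 12.7, RPRD1A_RPRD1A_KD 248 ± 21, RPRD1A_KD 243 ± 24.9, RPRD2_KD 241 ± 12.6, RPRD1A_RPRD1B_RPRD2_KD 237 ± 17.5, FLP_TET 234 ± 7.92, RPRD1A_RPRD2_KD 232 ± 8.92, RPRD1B_RPRD2_KD 215 ± 8.44, RPRD1B_FL_TET 203 ± 18.2, FLP 202 ± 11.51, RPRD1B_FL 199 ± 20.1. Of these neighbours only RPRD1A_RPRD2_KD and RPRD1B_RPRD2_KD did not overlap. For ACTN4 they were FLP_TET 3195 ± 48.9, RPRD1B_FL_TET 3168 ± 570.3, RPRD1B_FL 2761 ± 109, FLP 2374 ± 392, RPRD1A_RPRD1A_KD 1131 ± 179, RPRD2_KD 1098 ± 251, RPRD1A_KD 1090 ± 221, RPRD1A_RPRD1B_RPRD2_KD 1024 ± 181, RPRD1B_KD 1009 ± 313, CTRL 962 ± 316, RPRD1B_RPRD2_KD 927 ± 112, RPRD1A_RPRD2_KD 594 ± 440.1. The 4 Flp-In T-REx 293 groups stood above the 8 HEK293T groups, and of the neighbours RPRD1B_FL and FLP, and FLP and RPRD1A_RPRD1A_KD, did not overlap.

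CTRL was also compared with FLP, which differ in cell line and in siRNA transfection, and these cannot be told apart. Of the 5 members other than LCP1, 3 were called, 2 higher and 1 lower in CTRL, where 33.4% of 12803 genes were called (16.1% higher, 17.4% lower). LCP1 is given as a description, with no test, because the same FLP libraries helped to single it out: from 296 and 3 summed counts its level in FLP was 64.2 times that in CTRL, with an exact 95% interval for counting error of 21.8 to 313. ACTN4 was lower, at 1186 and 739 CPM against 2096 and 2651 (−1.32, SE 0.32, edgeR adjusted p = 0.0023). PLS3 was higher, at 226 and 274 CPM against 132 and 103 (1.07, SE 0.20, edgeR adjusted p = 1.54e-04). FSCN1 was higher, at 275 and 625 against 209 and 244 (0.96, SE 0.34, edgeR adjusted p = 0.031). PLS1 (−0.10, 95% interval −0.63 to 0.43) and ACTN1 (0.27, −0.06 to 0.61) were not called.

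The call of PLS3 held in all 15 alternatives. ACTN1 was called in 1 of them, with the GC correction and the replicate number as a block (0.32, edgeR adjusted p = 0.045). That of FSCN1 was lost with DESeq2 (adjusted p = 0.096), with the GC correction (edgeR adjusted p = 0.076) and at a mean count of 50 or more (edgeR adjusted p = 0.056), and without the second CTRL library its log2 fold change was 0.25 (edgeR adjusted p = 0.67). It was also lost without the first FLP library (0.81, edgeR adjusted p = 0.18) or the second (1.07, edgeR adjusted p = 0.082). ACTN4 had an edgeR adjusted p of 0.058 without the second CTRL library. Over all libraries, PLS3 ranged from 205 to 332 CPM in HEK293T and from 69.5 to 132 in the Flp-In T-REx 293 lines, and ACTN4 from 283 to 1276 and from 2096 to 3571, with no overlap for either gene. FSCN1, ACTN1 and PLS1 overlap between the lines.

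Close relatives added little. ACTN2, the actinin of heart and skeletal muscle, was at 3.17 to 9.53 CPM in HEK293T and 1.46 to 7.36 in the Flp-In T-REx 293 lines and was called in no comparison. FSCN2 and FSCN3, the fascins of retina and testis, and ACTN3, of fast muscle, were at or under 1.496 CPM in every library.

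LCP1 is a gene of white blood cells, so their markers were read beside it. Of 14 leukocyte markers, none had enough counts to be tested, and their summed level was 0 to 3.49 CPM in HEK293T, 2.77 to 4.11 in the parent Flp-In T-REx 293 libraries and 1.28 to 2.70 in the RPRD1B_FL line. CD53, CORO1A, SPI1, TYROBP and CD48 had 0 counts in all 24 libraries and PTPRC, which encodes CD45, had 1 count in all. The rest had few counts, summed here over HEK293T, the parent and the RPRD1B_FL line, in that order. ITGB2 had 9, 17 and 5, WAS 14, 7 and 3, and PTPN6 10, 10 and 9. HCLS1 had 19, 0 and 1, LAPTM5 12, 4 and 2, and CD74, CD37 and FCER1G 0 to 2 each. Each of the 8 genes listed for this kidney line had counts in both lines, with a summed level of 159 to 253 CPM in HEK293T, 944 to 996 in the parent and 801 to 832 in the RPRD1B_FL line. Of the 7 with enough counts to be tested in RPRD1B_FL_TET against FLP_TET, 1 was called lower, the neurofilament gene NEFL, named after its value was seen (81.4 against 130 CPM, log2 fold change −0.66, edgeR adjusted p = 0.036). Among all genes tested there, 0.887% were called lower. Between CTRL and FLP 6 of the 8 were called lower and 1 higher, where 17.4% of all genes were called lower and 16.1% higher. The part of these markers in the results was not tested. The summed fibroblast markers (6 genes) were at 2.28 to 18.7 CPM and the endothelial ones (4 genes) at 0 to 1.05.

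The genes whose pattern over the 12 groups was closest to that of LCP1 were found by the root mean square difference of centred log2(CPM + 1) group means, among 10137 genes. CEBPE, a transcription factor on chromosome 14, was closest (0.69). Its level was 81.1 to 116 CPM in the 4 parental libraries and it was listed at 0 in the other 20. The next, RINL (1.096), KISS1R (1.14), BASP1 (1.17) and P2RX5 (1.17), were also highest in the parent and lower in the RPRD1B_FL line, but were not missing there. BASP1, a membrane-bound protein of growing nerve endings, was at 181 to 233 CPM in the parent, 75.0 to 84.2 in the RPRD1B_FL line and 7.60 to 21.4 in HEK293T. P2RX5, a channel gated by ATP, was at 34.7 to 57.5, 8.11 to 13.3 and 0 to 2.23 CPM. These 5 genes lie on other chromosomes than LCP1, and the likeness is over 12 means that share libraries.

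**Figure D4:**
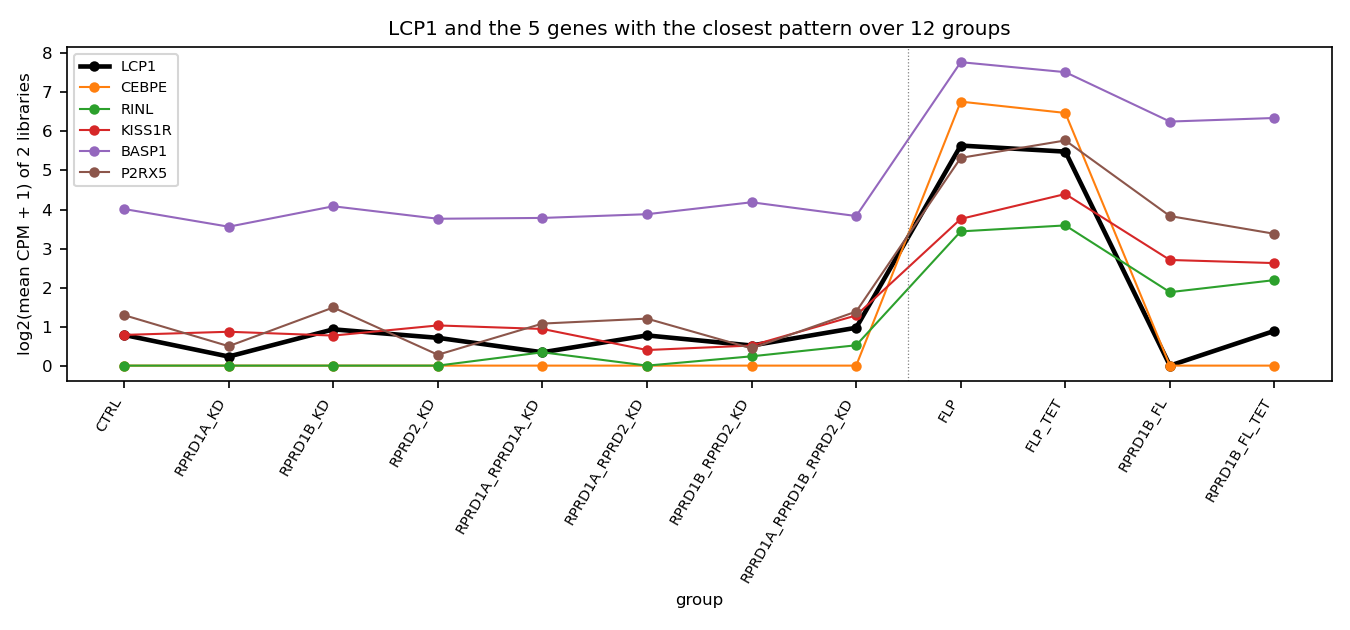
Log2 of the mean CPM plus 1 (vertical axis) in the 12 groups (horizontal axis) for LCP1 (black) and the 5 genes closest to it. CEBPE shares with LCP1 a level of 0 in RPRD1B_FL, while RINL, KISS1R, BASP1 and P2RX5 stay above 0 there.

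Around LCP1 on chromosome 13, 5 tested genes on each side (45341345 to 48047222) were read, a choice made after the data were seen. In RPRD1B_FL_TET against FLP_TET their log2 fold changes ran from −0.44 for SUCLA2 to 0.41 for CPB2-AS1, with a median of 0.03, and none of the 10 was called by edgeR. ZC3H13, the nearest protein-coding gene tested on one side, was at 98.1 CPM in FLP_TET and 103 in RPRD1B_FL_TET, and LRCH1 on the other at 9.47 and 7.95.

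Other genes of the actin cytoskeleton were read from 4 lists with 108 genes: other bundlers and cross-linkers (28), actin and its turnover (24), filament nucleation and elongation (30), and contractility and adhesion (26). Between RPRD1B_FL_TET and FLP_TET, 96 were tested and none was called by edgeR or DESeq2 (6 with an unadjusted p under 0.05), with a median log2 fold change of −0.05 against 0.00358 over all genes. In the RPRD1B_FL and FLP libraries none of 96 was called either by edgeR (11 with an unadjusted p under 0.05). In the 7 silenced groups none of 98 was called in any group by edgeR or DESeq2, with 0 to 11 genes at an unadjusted p under 0.05 per group and the most in RPRD1A_RPRD2_KD. In that group 4 were called lower without a filter on low counts, where the share of all genes called is not given. No count of actin genes is given for its second library alone, the one that stands apart in GC trend.

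With tetracycline in the parent, 2 of 96 actin genes were called (2.08% against 1.02% of all genes). TAGLN2, a small actin-binding protein of the transgelin family, rose from 2788 CPM ± 180 to 4104 ± 28.2 (SD, n = 2, log2 fold change 0.62, edgeR adjusted p = 0.04995), and PDLIM5, a scaffold at stress fibres, fell from 147 ± 43.5 to 74.1 ± 2.58 (−0.91, edgeR adjusted p = 0.04995). Each was called in 5 of 14 alternatives. A fit of the 2 groups alone called 11 actin genes higher and 7 lower, and DESeq2 called 3 and 1. The share of all genes called in those fits is not given, so these counts cannot be set against the 1.02%. Over the alternative fits 0 to 1273 genes were called in this comparison.

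Between CTRL and FLP, 38 of 99 actin genes were called, 16 higher and 22 lower, 38.4% against 33.4% of all genes. The median log2 fold change was −0.12, against 0.02 over all genes. Counts without 1 of the CTRL or FLP libraries ran from 7 to 11 higher and from 16 to 21 lower, the fewest without the first FLP library, and DESeq2 called 12 and 22.

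Among the other bundlers and cross-linkers, 5 of 22 tested were higher in CTRL and 5 lower. BAIAP2, which bends membranes at filopodia, was at 32.9 CPM ± 0.228 in CTRL and 13.6 ± 6.02 in FLP (log2 fold change 1.22). DBN1, the actin-binding drebrin, was higher by 0.85. EPS8, a capping and bundling protein, fell by 1.19, and DST and MACF1, the giant linkers of actin and microtubules, fell by 1.05 and 0.85 on the log2 scale. FLNC, the muscle filamin, had the largest value of this list, 3.51, at 9.79 CPM in CTRL and 0.80 in FLP, and was picked after its value was seen.

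In the list of actin and its turnover, 4 of 22 were higher and 6 lower. TWF2, a monomer-binding twinfilin, was higher by 1.45 on the log2 scale and its relative TWF1 by 0.74, and the profilin PFN1 by 0.76. SCIN, which severs filaments, was at 1.22 CPM ± 0.189 in CTRL and 11.97 ± 0.501 in FLP (−3.25). TMOD1, which caps pointed ends, was lower by a log2 fold change of −2.39, and CAPZB, a subunit of the barbed-end capping protein, by −1.24.

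In nucleation and elongation, 2 of 30 were higher and 5 lower. ARPC4, a subunit of the Arp2/3 complex, was higher (0.77), as was VASP, which elongates filaments (0.72). CYFIP2 and WASF2, both of the WAVE regulatory complex, were lower, CYFIP2 at 13.6 CPM ± 0.0386 against 66.5 ± 1.66 (−2.31) and WASF2 at 75.5 ± 19.01 against 197 ± 28.0 (−1.41). COBL, a nucleator, was lower too (−1.54).

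In contractility and adhesion, 5 of 25 were higher and 6 lower. TPM2, a tropomyosin, was at 94.5 CPM ± 7.17 in CTRL and 2.49 ± 0.883 in FLP (5.15, SE 0.27, edgeR adjusted p = 3.26e-13), while TPM1 was lower (−1.13). PDLIM4 was higher (4.29) from 0.51 CPM in FLP, under the floor, to 10.5. LIMS1, an adhesion adaptor, was higher by 0.82. MYL12B, a myosin regulatory light chain, was at 134 ± 2.38 against 335 ± 11.98 (−1.35), and CTNNA1, the catenin that ties cadherins to actin, was lower (−1.04). PFN1, TWF1, LIMS1, DBN1, EPS8, DST, ARPC4, VASP and COBL lost the call in at least 1 alternative. FLNC was not refitted, and the other genes named from the 4 lists kept the call in every alternative that could be fitted.

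**Figure D5:**
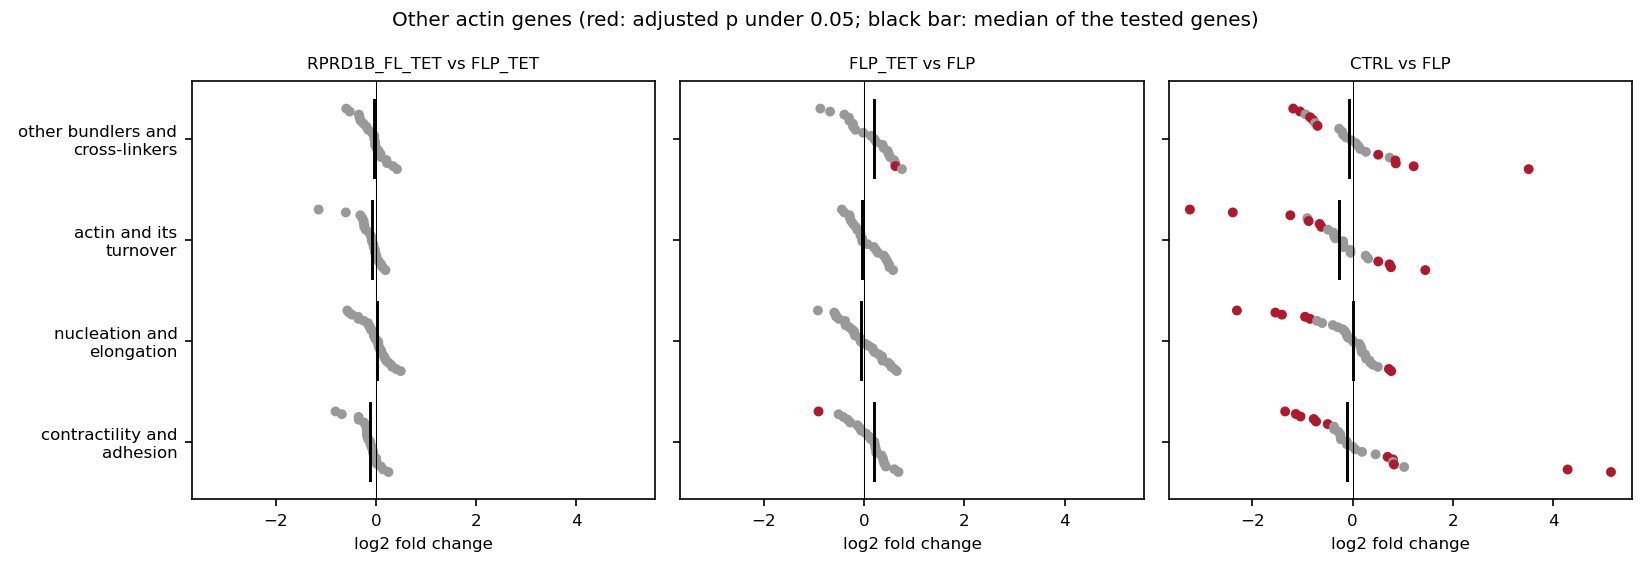
Log2 fold changes of the tested genes of 4 actin lists (rows) in 3 comparisons, each point a gene, red where the adjusted p was under 0.05, with a bar at the median. There is no red point between RPRD1B_FL_TET and FLP_TET, 2 between FLP_TET and FLP, and 38 between CTRL and FLP.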

How the data were processed

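RNA of 24 cell-line samples was sequenced from 3′ ends (QuantSeq REV). The authors deposited whole-number counts per gene name, 1 table per sample. FastQC, STAR, HTSeq, DESeq2 and GRCh38 are named, without versions, per the submitters' processing notes; strand settings are not given in the sources used here. Closing rows for unassigned reads, 30.4% to 48.5% of the reads in a table, were left out. Reads at 3′ ends count transcripts without regard to length, and levels were not compared between genes.

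Counts were tested in R 4.3.3 with edgeR 4.0.16 (TMM scaling, filterByExpr with minimum count 10 and total 15, quasi-likelihood test, Benjamini-Hochberg adjustment over all genes, called under 0.05), with 1 fit per cell line and 1 of all 24 samples for CTRL against FLP. SE was taken as the absolute log2 value divided by the root of F. Between 2 libraries of a group, chi-square per degree of freedom was 2.11 to 11.8. Of the 58138 names, 54814 matched 1 GENCODE 29 gene, used for GC content and positions. Promoters are from RefSeq.

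The members and lists were chosen with earlier results of these data known. Named are all members, the member with the largest change in each silenced group, up to 3 higher and 3 lower called genes per actin list whose groups do not overlap and whose higher mean is 10 CPM or more, and the 5 genes most like LCP1. A gene that the rule names is not reported here. Alternatives were RLE or plain scaling, DESeq2 1.42.0, other filters and fits, the replicate number as a block, leaving out libraries and, added after seeing the data, a GC correction and a crossed block.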

Additional observations from a re-analysis of the deposited data

How the results depend on the processing

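LCP1 was called lower in RPRD1B_FL_TET in all 15 alternatives (log2 fold change −10.08 to −4.67). These alternatives share the libraries and the choice of LCP1, so they are not separate support for it. Members called between FLP_TET and FLP were 0, but 1 without a filter on low counts, 3 with only the compared groups, and 0 to 2 with a library left out. In the silenced groups they were 0, but 1 without a filter and 0 to 1 with a library left out. Between CTRL and FLP they were 4 counting LCP1, for which no test is given, but 2 at a mean count of 50 or more (LCP1 could not be fitted there), 5 with the GC correction and block, where ACTN1 was added, and 2 to 4 with a library left out. The cause was not tested.

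Replicate numbers fell short of the rule for pairing, which asks that every pair of groups correlate over 0.1: deviations of same-numbered samples correlated at a mean of 0.33 over 28 pairs in HEK293T (−0.011 to 0.52, with 26 over 0.1 and the other 2 both involving RPRD1A_RPRD2_KD, and 0.29 to 0.52 over the 21 pairs without that group) and −0.018 over 6 pairs in Flp-In T-REx 293 (−0.36 to 0.46). This is a hint from the data and not from the design. With the replicate block, LCP1 in RPRD1B_FL_TET was at −5.76 and no count of members called moved. Genes called between FLP_TET and FLP went from 122 to 1. With crossed numbers in the block, genes called between RPRD1B_FL and FLP went from 141 to 462.

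Genes called ranged over the alternatives from 28 to 265 (133 as reported) between RPRD1B_FL_TET and FLP_TET, from 0 to 1273 (122) between FLP_TET and FLP, from 0 to 74 (0) for tetracycline in the RPRD1B_FL line, from 0 to 5 (0) for the difference of tetracycline effects, from 2581 to 5184 (4279) between CTRL and FLP, and from 0 to 573 in single silenced groups, the highest in RPRD1A_RPRD2_KD on its second library alone. Without that library and with the replicate block they were 25 to 167 per silenced group and 162 for the mean of the 7 (1 to 2 per group and 2 as reported), with no member called. Of the actin lists 0 to 3 genes per silenced group and 4 for the mean of the 7 were then called, all lower.

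Signs changed only for members that were not called. Between RPRD1B_FL_TET and FLP_TET, ACTN4 was at −0.012 with plain library sizes, −0.018 without a filter, −0.00793 at a mean count of 50, −0.00523 with the GC correction, −0.00548 with that and the block, −0.012 with crossed numbers and −0.23 to 0.21 with a library left out, and PLS3 at −0.10 to 0.32. Between FLP_TET and FLP, PLS1 was at 0.13 with the GC correction, with or without the block, and −0.49 to 0.024 with a library left out, and LCP1 at −0.33 to 0.17. With tetracycline in the RPRD1B_FL line and the GC correction, with or without the block, PLS1 was at 0.0204 (0.0200 with the block), PLS3 at 0.0780 (0.0801) and FSCN1 at −0.096, and with a library left out PLS3 at −0.32 to 0.0906, FSCN1 at −0.14 to 0.24 and ACTN1 at −0.0562 to 0.22. For the difference of tetracycline effects PLS1 was at 0.00149 in a fit of all 24 samples and −0.25 to 0.26 with a library left out. With a library left out, FSCN1 was at −0.86 to 0.27 in RPRD2_KD and −0.79 to 0.34 in RPRD1B_RPRD2_KD, and PLS1 at −0.36 to 0.0527 between CTRL and FLP. For the mean of the 7 silenced groups, PLS3 was at −0.0224 to 0.19, FSCN1 at −0.69 to 0.43 and ACTN4 at −0.37 to 0.38 with a library left out, and ACTN4 at 0.00148 with plain library sizes, 0.00599 with the GC correction and block, and 0.0320 without the second RPRD1A_RPRD2_KD library with the block. With a lone library left in a group, it is assumed to vary like the other groups. Depth limits LCP1 outside the parent line, where counts lie at the floor.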
